A study of Mus musculus with 4 samples.

Results

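The receptors through which blood progenitors and dendritic cells receive growth factor and cytokine signals were examined in cultured mouse cells. The 10 genes were taken from a list of receptors for stem cell factor, Flt3 ligand, M-CSF, GM-CSF, G-CSF, interleukin-7 and interleukin-6, namely Kit, Flt3, Csf1r, Csf2ra, Csf2rb, Csf2rb2, Csf3r, Il7r, Il6ra and Il6st. They are 10 of 8220 genes measured, read by 16 of 12654 probe sets, of which 15 are annotated to 1 gene and 1 to both Csf2rb and Csf2rb2. The study followed dendritic cells, which present antigen to T cells, as they formed in culture from progenitors of bone marrow. It holds 4 arrays of total RNA: the in vitro amplified progenitors, cells at day 7 of differentiation, cells at day 10, and a day 10 culture that also received tumour necrosis factor alpha (TNF) for 16 hours. Every group has 1 array, so there is no replicate, no test and no p-value, and each difference below is one between 2 arrays. The sources used here do not give the strain, the number of cultures or the growth factors in the medium.

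Kit, Flt3 and Csf1r encode receptor tyrosine kinases, which pair and phosphorylate each other when ligand binds. The others encode cytokine receptor chains without a kinase of their own, which signal through bound Janus kinases and STAT factors. Many are built from a chain that is private to a ligand and a chain that is shared: Csf2ra binds GM-CSF and works with the common beta chain Csf2rb, and Il6ra binds interleukin-6 and works with Il6st (gp130). Flt3 and GM-CSF signals are known to drive dendritic cell growth, M-CSF that of macrophages and G-CSF that of neutrophils.

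Levels are probe-set intensities, scaled so that all arrays have the same 75th percentile. Values under 428 units, the 60th percentile of all scaled values, were raised to 428 before a ratio was taken. Where only the dimmer array lies under that floor the fold is a lower bound, written "at least", and where both do no fold is given. A gene is counted as higher or lower from 2-fold on, by its brightest probe set on average over the arrays. The only available error is how far a gene's 2 brightest probe sets differ in log2 ratio. For day 7 against progenitor the SD of that difference was 0.62 (373 genes), and for day 10 against day 7 it was 0.71 (370 genes). Setting day 10 against progenitor gave an SD of 0.81 (343 genes), and setting TNF against day 10 gave 0.56 (369 genes). It covers probe sets only, not cultures. Levels of different probe sets cannot be compared with each other, so each gene is followed across arrays only.

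The arrays bore out their labels in part. Of 13 dendritic cell markers, such as H2-Aa and Itgax (CD11c), 13 were above the floor on each of the 3 later arrays and 2 on the progenitor array. Of 8 progenitor markers measured, 4 were above the floor for day 7 against progenitor. They were split, with 1 counted as lower and 1 as higher on the day 7 array, against 9.72% and 10.5% of all genes. Myb was the lower one, with 1104 units on the day 7 array against 8955. Cd48 went the other way, with 5314 units against 1064. The stem cell marker Cd34 lay under the floor on all 4 arrays. Granulocyte genes were bright on the first 3 arrays: the summed level of 12 markers was 229815 units in progenitors, 132991 at day 7, 159790 at day 10 and 18291 with TNF. The higher sum at day 10 than at day 7 rests on the scaling. Over the markers above the floor the median log2 ratio was -0.22 in that comparison and -1.38 after quantile normalization. In such bulk RNA, fewer cells of a kind and less RNA per cell cannot be told apart.

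Promoter sequences are shown for 4 members whose levels carry the results below: Csf2ra and Csf2rb2, which were higher in differentiated cells, Il7r, which had the widest range of the 10, and Csf3r, which was lower with TNF. Windows of 250 bases before and 50 after the RefSeq gene start in GRCm38.p6 were used for 8 of the 10 genes, not for Csf1r and Csf2rb. Capitals mark the letters GGAAG on either strand (CTTCC on the other), the core bound by Ets factors such as PU.1. The windows lie at chr19:61228369-61228668 (minus strand) for Csf2ra, chr15:78305672-78305971 (minus) for Csf2rb2, chr15:9529827-9530126 (minus) for Il7r and chr4:126024409-126024708 (plus) for Csf3r.
Csf2ra: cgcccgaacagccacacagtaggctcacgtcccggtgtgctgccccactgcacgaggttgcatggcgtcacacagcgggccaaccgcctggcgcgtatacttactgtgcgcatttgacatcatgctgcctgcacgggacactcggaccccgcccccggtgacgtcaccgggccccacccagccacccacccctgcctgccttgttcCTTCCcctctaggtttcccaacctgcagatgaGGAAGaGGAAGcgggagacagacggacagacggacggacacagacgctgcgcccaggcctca
Csf2rb2: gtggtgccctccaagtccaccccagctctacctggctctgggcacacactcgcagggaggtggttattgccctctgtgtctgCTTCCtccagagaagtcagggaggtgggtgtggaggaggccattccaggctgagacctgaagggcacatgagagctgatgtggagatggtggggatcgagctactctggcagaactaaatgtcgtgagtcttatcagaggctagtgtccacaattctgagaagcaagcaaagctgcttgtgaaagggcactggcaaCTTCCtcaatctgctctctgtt
Il7r: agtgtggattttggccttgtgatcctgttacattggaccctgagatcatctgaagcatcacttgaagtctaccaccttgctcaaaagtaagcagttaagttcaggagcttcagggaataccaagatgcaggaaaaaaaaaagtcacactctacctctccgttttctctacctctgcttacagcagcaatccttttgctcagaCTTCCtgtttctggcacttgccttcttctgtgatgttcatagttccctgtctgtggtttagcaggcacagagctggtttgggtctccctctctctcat
Csf3r: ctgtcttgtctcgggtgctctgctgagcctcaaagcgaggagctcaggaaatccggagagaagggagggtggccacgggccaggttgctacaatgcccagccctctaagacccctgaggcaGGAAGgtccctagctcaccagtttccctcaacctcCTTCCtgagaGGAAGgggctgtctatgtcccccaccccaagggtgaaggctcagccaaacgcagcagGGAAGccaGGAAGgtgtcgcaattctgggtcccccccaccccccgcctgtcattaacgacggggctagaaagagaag
The letters occur 3 times in the Csf2ra window, 2 times in that of Csf2rb2, 1 time in that of Il7r and 5 times in that of Csf3r. All 8 genes with a window hold them, and so do 71.4% of 32851 mouse promoter windows. The letters GAGGAA, a form preferred by PU.1 that overlaps the first motif in part, occur on either strand in 5 of the 8 genes and in 28.3% of all windows. The letters TTNNGNAA, read by C/EBP factors, occur on either strand in 4 of the 8 and in 40.7% of all windows. These matches describe the sequence only. Spi1, which encodes PU.1, was itself at 8219 units in progenitors, 12494 at day 7, 13572 at day 10 and 9064 with TNF.

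**Figure D1:**
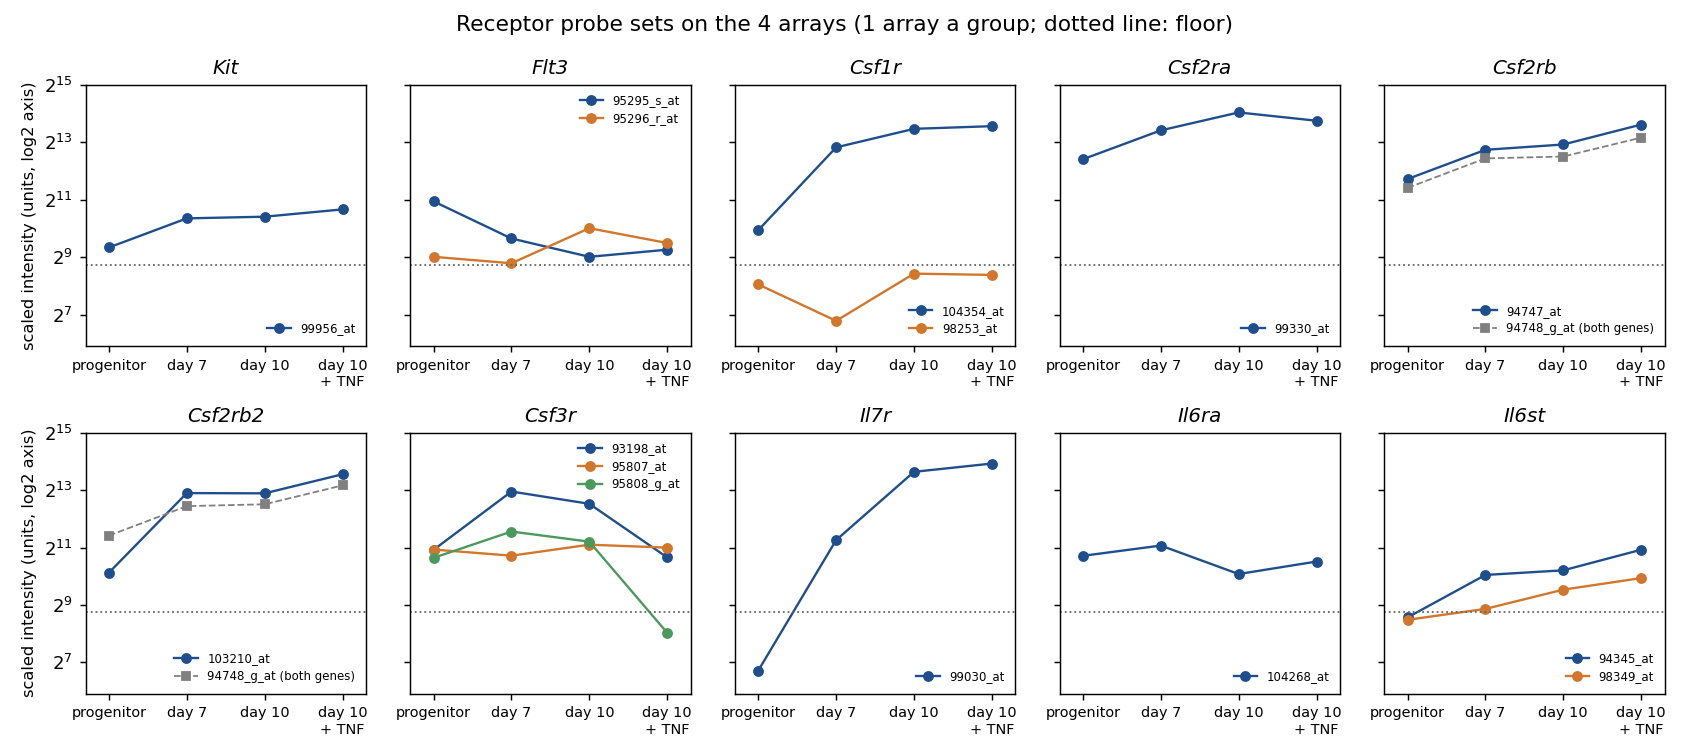
Scaled intensity (log2 axis) of every probe set of the 10 receptor genes on the progenitor, day 7, day 10 and day 10 with TNF arrays, 1 array each; the dotted line is the floor of 428 units and grey squares are the probe set annotated to both beta chains. Il7r spans 105 to 15554 units over the 4 arrays, and the 3 probe sets of Csf3r part from each other.

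Most of the receptor genes stood higher once differentiation had begun. On the day 7 array 8 of the 10 were at least 2-fold higher than on the progenitor array and 1, Flt3, was lower, whereas 10.5% of all genes above the floor were higher and 9.72% lower. The median log2 ratio was 1.16 over the 10 genes and -0.07 over all genes. From day 7 to day 10 only Il7r passed 2-fold, with 1 of 10 higher and 0 lower, against 7.26% and 4.65% of all genes. Day 10 set against the progenitor again gave 8 higher and 1 lower, against 17.3% and 14.8%. With TNF 0 were higher and 1, Csf3r, was lower than at day 10, against 4.71% and 5.15% of all genes. These comparisons share arrays, the progenitor, day 7 and day 10 arrays each standing in more than 1 of them. At day 7 Kit, Csf2ra and Csf2rb lay at 2.02-fold, 2.01-fold and 2.03-fold, so their count turns on small shifts: scaling to the median of positive probe sets left 5 of 10 higher, a 3-fold rule 4. With a floor at the 75th percentile or with the mean of a gene's probe sets 6 were higher, and Il6st was no longer among them. After quantile normalization 7 of the 10 were higher and 1 lower at day 7 than in progenitors, against 10.8% and 10.1% of all genes, and day 10 set against day 7 gave 1 higher and 1 lower, against 5.37% and 5.44%. It left 8 higher and 1 lower for day 10 against progenitor (15.3% and 15.9% of all genes) and 0 higher and 1 lower for TNF against day 10 (4.81% and 4.72%).

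**Figure D2:**
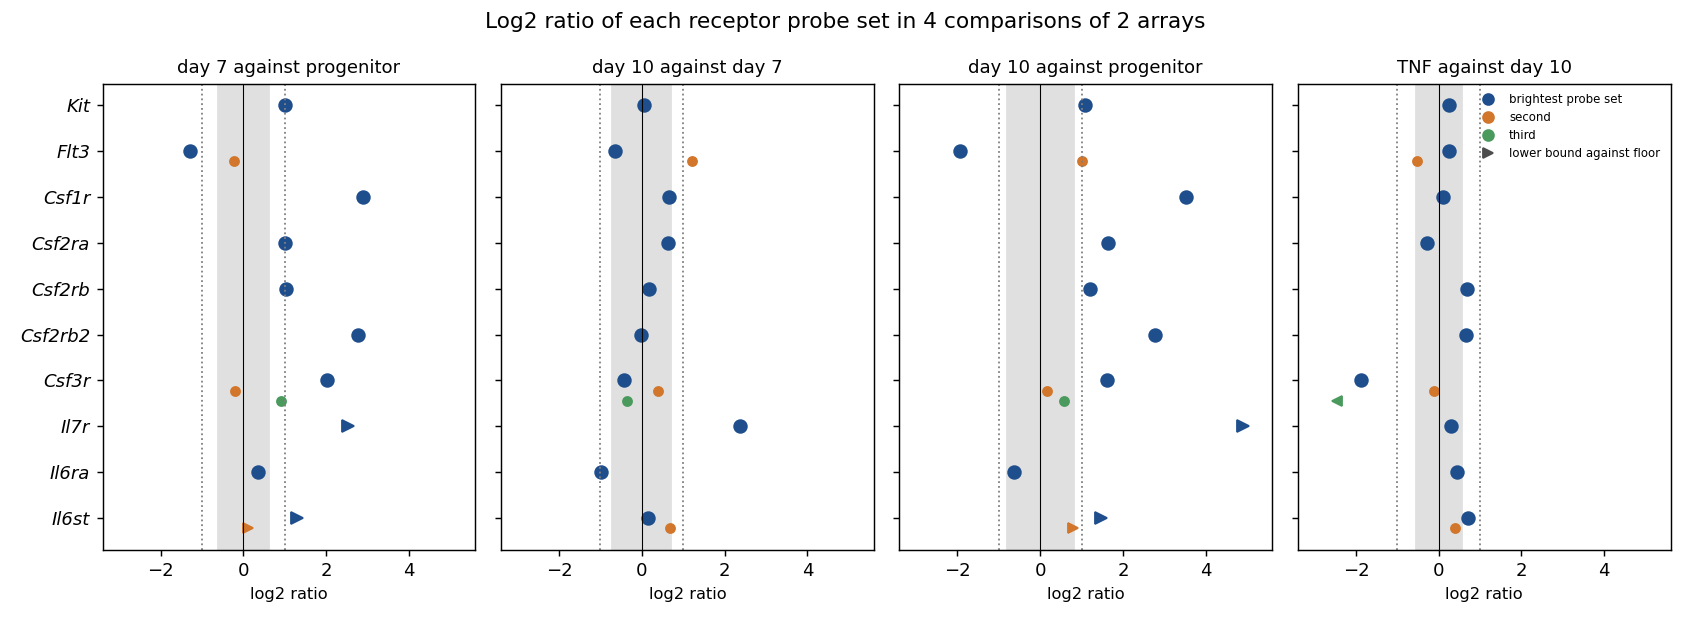
Log2 ratio of each receptor probe set in the 4 comparisons of 2 arrays, after the floor; blue is the brightest probe set of a gene, orange the second, green the third, and triangles are lower bounds. The grey band is ± 1 SD of the disagreement between probe sets, dotted lines mark 2-fold, and only Il7r lies past 2-fold in the brightest probe sets of day 10 against day 7.

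**Figure D3:**
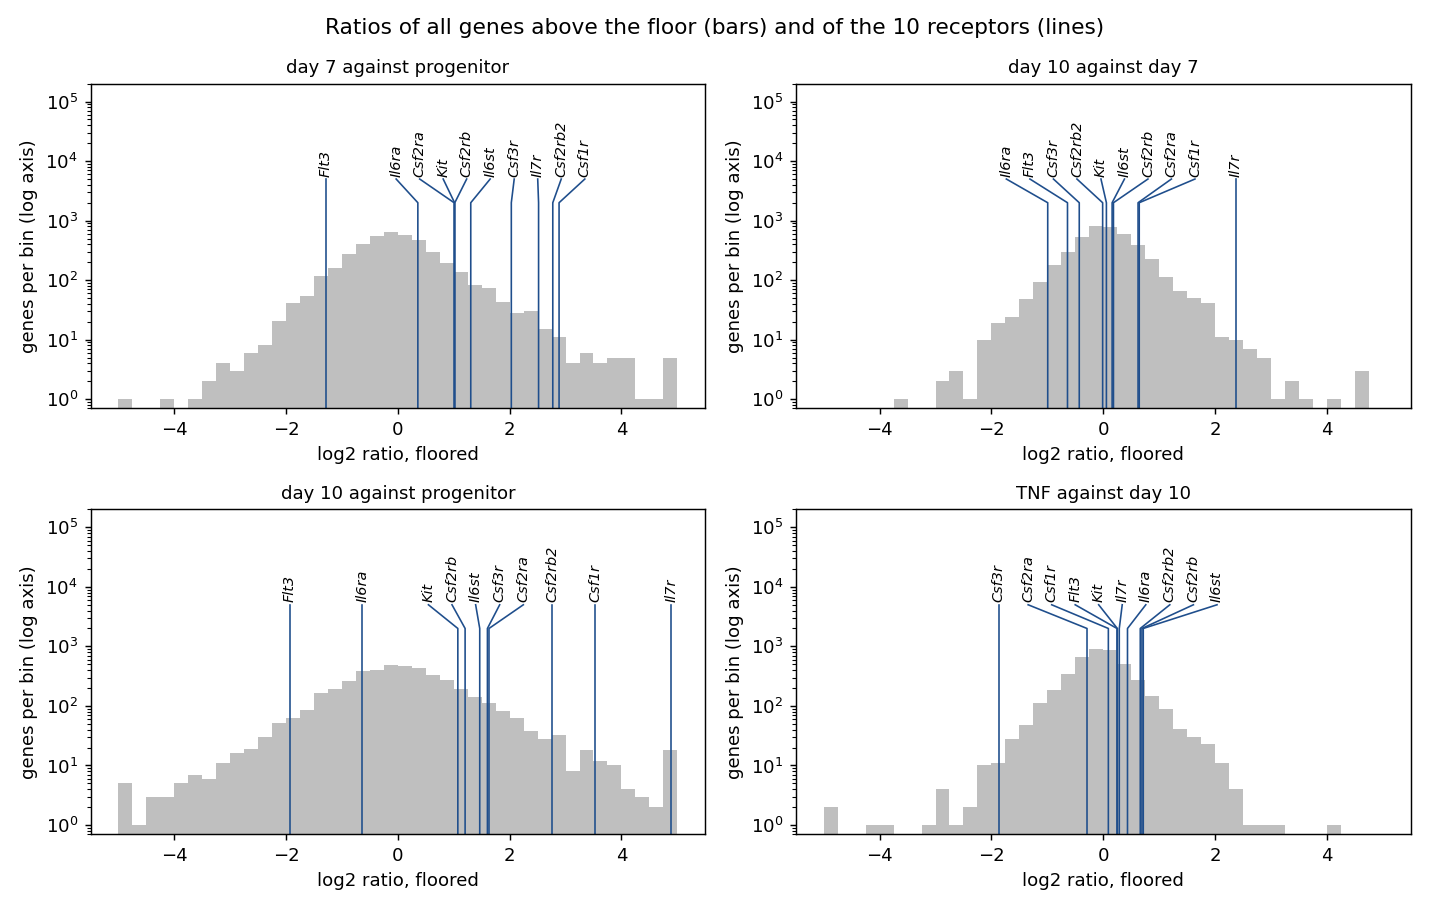
Log2 ratios of all genes above the floor on at least 1 of the 2 arrays (bars, number of genes per bin of 0.25 on a log axis, with values past 5 placed in the end bins) and of the 10 receptor genes (blue lines). At day 7 and day 10 most receptors lie right of the bulk of genes set against the progenitor, and with TNF Csf3r alone lies far left, at -1.87.

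Among the tyrosine kinase receptors Kit and Flt3 differed from progenitors in opposite directions. Kit, the receptor for stem cell factor and a mark of early progenitors and mast cells, had 1308 units at day 7 against 647 in progenitors. It had 1362 units at day 10 and 1624 with TNF, so the progenitor array was its lowest. Its ratios were 2.02-fold higher at day 7 than in progenitors (log2 1.01, or 0.99 after quantile normalization), 1.04-fold at day 10 against day 7, and 1.19-fold with TNF against day 10. Most mast cell and basophil markers were not higher alongside Kit. Of 10 measured, 4 were above the floor for day 7 against progenitor. Of these, 0 were higher and 3 lower at day 7, against 10.5% and 9.72% of all genes. The summed level of the 10 was 2003 units at day 7, against 4996 in progenitors. The mast cell genes Cpa3 and Hdc were at 386 and 210 units at day 7, against 1638 and 888 in progenitors, and Fcer1a and Ms4a2 were under the floor on all 4 arrays. Cma1, a mast cell chymase gene, was under the floor in progenitors at 91 units and had 438 at day 7, 675 at day 10 and 641 with TNF. The part of mast cells in the Kit level was not tested. Kit was read by a single probe set.

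Flt3, whose ligand drives the growth of dendritic cell precursors, was the 1 receptor gene lower in differentiated cells. Its brighter probe set, 95295_s_at, read 1972 units in progenitors, 805 at day 7, 517 at day 10 and 614 with TNF. That is 2.45-fold lower at day 7 and 3.81-fold lower at day 10 than in progenitors, with the day 10 level close to the floor. The second probe set, 95296_r_at, read 517, 442, 1032 and 721 units on the same arrays, with its highest level on the day 10 array, where the first had its lowest. For day 10 against progenitor the first gave a log2 ratio of -1.93 and the second one that lay 2.93 higher, beside the SD of 0.81 between probe sets. The ending _s marks probes shared by several sequences and _r a set that missed some of the maker's selection rules. Averaged over both probe sets, Flt3 was not 2-fold lower in any comparison. Both were lower at day 7 than in progenitors, by log2 ratios of -1.29 and -0.23, whereas the direction for day 10 against progenitor rests on which of them is read.

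Csf1r, the receptor for M-CSF and interleukin-34 and a mark of monocytes and macrophages, stood higher on every later array. It had 7257 units at day 7, 11354 at day 10 and 12111 with TNF, against 983 in progenitors. The day 7 level was 7.38-fold and the day 10 level 11.6-fold above progenitors, while TNF and day 10 differed by 1.07-fold. Its log2 ratio at day 7 exceeded that of Kit by 1.87, beside an SD of 0.62. A second probe set, 98253_at, lay under the floor on all 4 arrays, at 110 to 344 units, and gives no ratio. The mean of both probe sets gave a day 7 log2 ratio of 1.44. Many macrophage markers were higher too. Of 12 measured, 11 were above the floor for day 7 against progenitor. Of these, 6 were higher and 1 lower at day 7, against 10.5% and 9.72% of all genes. The summed level of the 12 was 79369 units at day 7 and 204140 at day 10, against 22098 in progenitors. The step between day 7 and day 10 depends on the scaling. The median log2 ratio of the macrophage markers above the floor was 0.97 and became 0.20 after quantile normalization. With TNF the summed level was 146468 units. Of the 9 markers above the floor, 0 were higher and 2 lower than at day 10, against 4.71% and 5.15% of all genes. The macrophage genes Adgre1 and Mrc1 had 3741 and 2714 units with TNF, against 9345 and 9009 at day 10, and C1qc, the marker called lower at day 7, had 1679 units in progenitors and was under the floor afterwards. Their part in the Csf1r level was not tested.

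The GM-CSF receptor chains were present in progenitors and higher afterwards. Csf2ra, the chain that binds GM-CSF, had 5449 units in progenitors, 10940 at day 7, 16868 at day 10 and 13808 with TNF. It was 2.01-fold higher at day 7 and 3.10-fold higher at day 10 than in progenitors, and 1.22-fold lower with TNF than at day 10. The day 10 against day 7 log2 ratio of 0.62 became 0.24 after quantile normalization. Bright probe sets were higher on the day 10 array in general: those with a mean of 8192 to 16384 units had a median log2 ratio of 0.26 against day 7, and those above that 1.18. The median of 9 bacterial spike-in control probe sets, which read RNA that the cells do not make, was 10443 units at day 10 against 3990 at day 7.

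Csf2rb, the beta chain shared by the receptors for GM-CSF, interleukin-3 and interleukin-5, had 3380 units in progenitors, 6846 at day 7, 7780 at day 10 and 12589 with TNF. Csf2rb2, a second mouse beta chain that serves the interleukin-3 receptor, had 1117, 7625, 7577 and 12007 units on the same arrays. Both had their highest level with TNF and their lowest in progenitors. At day 7 Csf2rb2 was 6.83-fold and Csf2rb 2.03-fold above progenitors, a difference of 1.75 on the log2 scale beside the SD of 0.62. With TNF both were close, 1.58-fold for Csf2rb2 and 1.62-fold for Csf2rb over day 10, and neither reached 2-fold. These genes are near-identical copies that sit side by side on chromosome 15 in GRCm38.p6, so their probes may not be fully separate. The probe set annotated to both, 94748_g_at, read 2731 units in progenitors, 5564 at day 7, 5819 at day 10 and 9183 with TNF. Its day 7 log2 ratio of 1.03 lay next to the 1.02 of Csf2rb, with which it shares its design sequence, and not the 2.77 of Csf2rb2. With TNF the log2 ratio of Csf2ra lay 0.98 below that of Csf2rb, beside an SD of 0.56, and neither gene was called. In that comparison 6.78% of genes with 2 probe sets above the floor differed 2-fold between them.

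Csf3r, the receptor for G-CSF, was the 1 receptor gene lower with TNF. Its brightest probe set, 93198_at, had 1615 units with TNF against 5886 at day 10, and 7916 at day 7 against 1939 in progenitors. It was thus 4.08-fold higher at day 7 than in progenitors and 3.64-fold lower with TNF than at day 10 (log2 -1.87, or -1.81 after quantile normalization). The probe set 95808_g_at had 262 units with TNF against 2359 at day 10, at least 5.51-fold lower, and 3013 units at day 7 against 1598 in progenitors, 1.89-fold higher. The remaining one, 95807_at, made from the same design sequence as 95808_g_at, hardly differed between arrays, at 1682 to 2194 units, and was 1.07-fold lower with TNF. The 3 probe sets spread over 2.36 on the log2 scale in that comparison, beside an SD of 0.56. Their mean left Csf3r at least 2-fold lower with TNF, but no longer 2-fold higher at day 7 (log2 0.91).

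Granulocyte genes were lower on the TNF array as well. Of 12 measured, 7 were at least 2-fold lower and 0 higher than at day 10, against 5.15% and 4.71% of all genes. The 9 above the floor on at least 1 of the 2 arrays had a median log2 ratio of -2.94, against -0.04 over all genes. Ltf (lactoferrin) had 423 units with TNF against 13610 at day 10, Ngp 831 against 27554, Mmp8 893 against 16640 and S100a8 7537 against 57731. At day 7, where Csf3r was higher, 1 of 12 was higher and 5 lower than in progenitors, against 10.5% and 9.72% of all genes. Mpo and Elane of the primary granules were among the lower ones. The part of granulocyte RNA in the Csf3r levels was not tested.

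**Figure D4:**
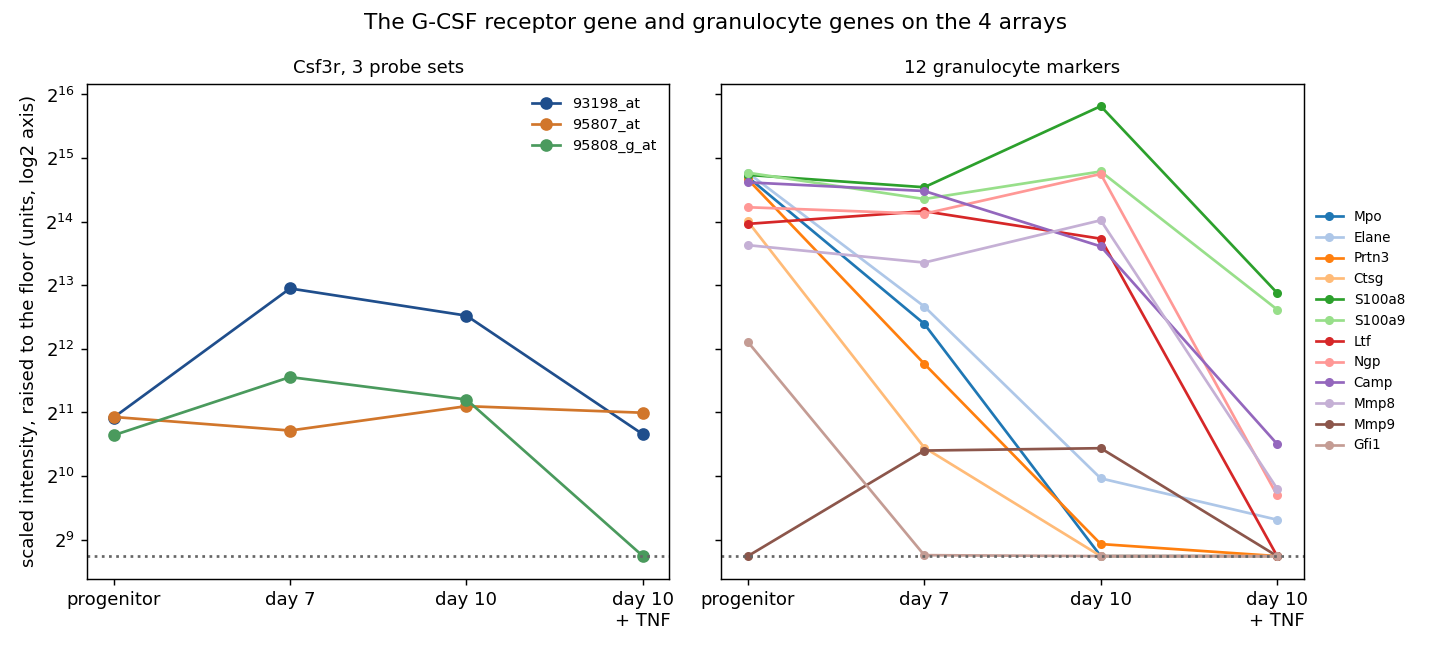
Scaled intensity, raised to the floor of 428 units (dotted line, log2 axis), of the 3 Csf3r probe sets (left) and of 12 granulocyte markers (right) on the 4 arrays. Csf3r probe sets 93198_at and 95808_g_at and the markers Ltf, Ngp, Mmp8, Camp, S100a8 and S100a9 lie lower with TNF than at day 10, while 95807_at stays near 2042 to 2194 units.

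Il7r had the widest range of the 10. The gene encodes the alpha chain of the interleukin-7 receptor, which lymphocyte precursors need and which also forms part of the TSLP receptor on dendritic cells. It had 105 units in progenitors, which is under the floor, 2451 at day 7, 12734 at day 10 and 15554 with TNF. The day 7 level was at least 5.73-fold and the day 10 level at least 29.7-fold above progenitors, day 10 was 5.19-fold above day 7, and TNF 1.22-fold above day 10. After quantile normalization the day 10 against day 7 log2 ratio was 2.20, against 2.38 before. Most lymphoid markers were not detected beside it. Of 13 measured, 1 to 3 lay above the floor on an array, and their summed level was 2739 units at day 10 and 3461 with TNF, against 1507 in progenitors. Cd3e, Cd3g and Cd3d of the T cell receptor and Rag1, Rag2 and Dntt of lymphocyte precursors were under the floor on all 4 arrays. Vpreb1, a pre-B cell gene, had 1353 units with TNF and 1175 at day 10, and was under the floor in progenitors and at day 7. The lymphoid marker Cd79b was under the floor in progenitors and had 594 units at day 7, 736 at day 10 and 632 with TNF. Igll1 was above the floor only with TNF, at 678 units, and Cd4 only in progenitors, at 701. Il2rg and Crlf2, the partner chains of Il7r, were not analysed here.

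The interleukin-6 receptor chains followed different courses. Il6ra, which binds interleukin-6, had 1677 units in progenitors, 2148 at day 7, 1080 at day 10 and 1461 with TNF. Its largest step, 1.99-fold lower at day 10 than at day 7, fell just short of 2-fold, and passed it in the values as deposited and after quantile normalization. Il6st, the signalling chain gp130, had 379 units in progenitors, 1057 at day 7, 1181 at day 10 and 1943 with TNF. It was at least 2.47-fold higher at day 7 and at least 2.76-fold higher at day 10 than in progenitors, and 1.64-fold higher with TNF than at day 10. Its second probe set, 98349_at, ran in the same order with smaller steps, at 358, 466, 741 and 980 units, and was not called in any comparison. With its progenitor level under the floor, it was at least 1.73-fold higher at day 10 than in progenitors. For day 10 against progenitor the log2 ratio of the brighter Il6st probe set, at least 1.46, lay at least 2.10 above that of Il6ra. The second Il6st probe set gave at least 0.79. The SD of 0.81 comes from probe sets above the floor on both arrays, which neither Il6st probe set was.

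Few ligands of these receptors were detected in the cultures. Of 17 ligand genes listed 11 were measured, and Kitl, Csf2 (GM-CSF), Il3, Il5, Il6, Il7, Il11 and Ctf1 were under the floor on all 4 arrays. Csf1, which encodes M-CSF, had 2545 units at day 10 against 716 in progenitors, 3.56-fold higher, with 1339 at day 7 and 2878 with TNF. Csf3, which encodes G-CSF, had 1052 units at day 10 and was under the floor in progenitors, at least 2.46-fold higher, and had 448 units with TNF, 2.35-fold lower than at day 10. Flt3l had 670 units in progenitors, 662 at day 7, 275 at day 10 and 546 with TNF. In all, 0 of 3 ligand genes above the floor were called at day 7, against 10.5% of all genes higher and 9.72% lower. For day 10 against progenitor 2 of 3 above the floor were higher and 0 lower, against 17.3% and 14.8% of all genes.

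Few close relatives and partners of the receptors were detected. Of 11 listed 7 were measured, and only Il3ra and Il27ra were above the floor. Of these 2, 0 were called in any of the 4 comparisons. Between 4.65% and 17.3% of all genes were called per direction, and 2 genes are too few to set against that. Il3ra, the alpha chain that binds interleukin-3, had 741 units in progenitors, 532 at day 7, 798 at day 10 and 702 with TNF, unlike both beta chains. Among 15 other cytokine receptors measured, 8 were above the floor for day 7 against progenitor and 9 for day 10 against progenitor. At day 7, 2 were higher and 1 lower than in progenitors, against 10.5% and 9.72% of all genes. At day 10, 3 were higher and 1 lower, against 17.3% and 14.8%. Il4ra, which binds interleukin-4, was 3.05-fold higher at day 10 than in progenitors, with 7155 against 2343 units. Il10ra was at least 3.74-fold higher and Il13ra1 at least 3.45-fold. The interferon receptor chain Ifnar2 was 3.19-fold lower, while its second probe set gave a log2 ratio of -0.14. With TNF Il12rb2, a chain of the interleukin-12 receptor, was 3.08-fold higher, with 1424 units against 462 at day 10. Ifngr1 and Il17ra were 2.40-fold and 2.04-fold lower, while a second Il17ra probe set gave a log2 ratio of -0.88, short of 2-fold.

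Of the genes that relay the receptors' signals 24 were measured. For day 7 against progenitor 20 were above the floor, with 3 higher and 0 lower, against 10.5% and 9.72% of all genes. For day 10 against progenitor 21 were above it, with 6 higher and 0 lower, against 17.3% and 14.8%. Over the genes above the floor the median log2 ratios were 0.42 and 0.49. Pik3cd, a PI3 kinase catalytic subunit, had 10867 units at day 10 against 2486 in progenitors, 4.37-fold higher, and the Src family kinase gene Fgr 4269 against 1227, 3.48-fold higher. With TNF 3 of the 20 above the floor were higher and 1 lower than at day 10, against 4.71% and 5.15% of all genes. Jak2, the kinase bound to the common beta chain, had 8453 units with TNF against 2956 at day 10, 2.86-fold higher, though a second probe set was under the floor on all 4 arrays. Stat5a, a factor that Jak2 activates, had 12581 units with TNF against 3448 at day 10, 3.65-fold higher, and its second probe set gave a log2 ratio of 2.25. Pik3r1 was 3.82-fold higher and Inpp5d, the phosphatase SHIP1 that limits PI3 kinase signals, 3.34-fold lower.

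Of 15 feedback and target genes measured, 12 were above the floor for day 7 against progenitor and 13 for day 10 against progenitor. At day 7, 4 were higher and 2 lower than in progenitors, against 10.5% and 9.72% of all genes. At day 10, 6 were higher and 3 lower, against 17.3% and 14.8%. Over the genes above the floor the median log2 ratios were 0.82 and 0.96. Cish, an inhibitor induced through STAT5, had 7158 units at day 7 and 10549 at day 10 against 2007 in progenitors, 3.57-fold and 5.26-fold higher. Socs3, which binds gp130 and the G-CSF receptor and limits their signals, was at least 4.87-fold higher at day 7 and at least 12.9-fold at day 10 than in progenitors. With TNF 2 of the 14 above the floor were higher and 0 lower than at day 10, against 4.71% and 5.15% of all genes. Socs2 had 19792 units against 6706, 2.95-fold higher, and the cyclin gene Ccnd2 2226 units against 29, at least 5.20-fold higher. Among 5 measured genes of receptor shedding and turnover, such as Adam10, 4 were above the floor. In any comparison 0 were called, beside 4.65% to 17.3% of all genes per direction.

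The genes nearest in pattern to the receptors were found by the root mean square difference of log2 profiles, centred on their mean over the 4 arrays, among genes above the floor on the same arrays. Of 3141 genes compared, 187 lay within 0.25 of Kit, 139 of Csf2ra, 79 of Csf2rb, 79 of Flt3, 4 of Csf2rb2, 2 of Csf1r and 2 of Csf3r. Il6st and Il7r, which were under the floor in progenitors, were compared with 280 genes, of which 16 lay within 0.25 of Il6st and 0 of Il7r. Nearest to Csf3r was Pld4 at 0.06, which had 498 units with TNF against 1999 at day 10, followed by Dhrs3 at 0.24 and Ltb at 0.28. Nearest to Csf1r were Ctsh at 0.21, Sgk1 at 0.24 and Cd9 at 0.27. Csf2rb2 lay nearest to Btg1 at 0.15, Mdfic at 0.22 and Cdkn1a at 0.22, and Csf2rb to Atp11a at 0.03, Rab12 at 0.04 and Socs1 at 0.06. Csf2ra lay nearest to Krt1 at 0.03, Il4ra at 0.04 and Anxa5 at 0.05. For Il7r the closest of 280 genes were H2-DMb2 at 0.45, Slc7a2 at 0.47 and the dendritic cell integrin Itgax at 0.48. Kit had Slc9a8, Zfp277 and Zkscan3 next to it, Flt3 had Park7, Rnps1 and Bak1, and Il6st had Abca1, Ppy and Rala, all at 0.03 to 0.14. The range of Il6ra stayed under 2-fold, so none was sought for it.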

How the data were processed

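Per the labels, total RNA of 4 groups was hybridised, 1 array each. The authors deposited 1 intensity per probe set and array on a linear scale; the sources used here do not give software, background method, scaling or detection calls. On each array 22.8% to 24.3% of probe sets were below 0, and the mean of the central probe sets was between 999.999 and 1000 on every array, as read from the values themselves. Of 12654 probe sets 10298 have 1 gene symbol in the platform annotation, 363 several and 1993 none; 10279 symbols were updated through the Entrez number. From the deposited intensities, arrays were scaled to a common 75th percentile (factors 0.962 to 1.05), floored at the 60th percentile and converted to log2, with Python 3.11.15, numpy and pandas. The members, lists and tests were chosen with earlier results of these data known. Named are all members, up to 4 called genes per list and comparison, and the 3 nearest patterns of each member that spans 2-fold. Spi1, Flt3l, Il3ra, Il27ra, Adam10, Cd34 and single marker genes below the fold or beyond that number were named after their values were seen. Alternatives were other scalings, floors, folds and the mean of probe sets. The number of arrays limits the precision.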

Additional observations from a re-analysis of the deposited data

How the results depend on the processing

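No paired analysis was possible because each group holds 1 array, and for the same reason no array could be left out. Of 240 ratios of the 10 receptor genes recomputed under 6 alternatives, 226 moved by less than the SD between probe sets, 14 by more and 0 called ratios reversed. The 14 belong to Csf1r, Csf3r and Flt3 under the mean of probe sets and to Flt3, Il6st, Il7r and Kit under another floor; the uncalled day 10 against day 7 log2 ratio of Flt3 was -0.64, and 0.29 under the mean. For day 7 against progenitor, 8 receptor genes were higher, but 5 with scaling to the median of positive probe sets and 4 with a 3-fold rule. There were 6 with a floor at the 75th percentile, which lost Kit and Il6st, and 6 with the mean of probe sets, which lost Csf3r and Il6st. The 1 lower gene, Flt3, became 0 with a 3-fold rule, with a floor at the 75th percentile and with the mean of probe sets. For day 10 against progenitor the 8 higher became 5 with a 3-fold rule. A floor at the 75th percentile, 1107 units, lost Kit and Il6st, which had 1362 and 1181 units at day 10. The mean of probe sets lost Csf3r, with log2 ratios of 1.60, 0.17 and 0.56. The values as deposited lost Kit, at a log2 ratio of 0.95. The 1 lower became 0 with a floor at the 75th percentile and with the mean of probe sets. For day 10 against day 7 the 0 lower became 1, Il6ra, in the values as deposited and after quantile normalization. Over all genes, 61.0% of the calls between day 10 and day 7 were higher, but 49.7% in the values as deposited and after quantile normalization. Counts of all genes moved by over 1.5 times only under the other floors and the 3-fold rule. Higher and lower at day 7 against progenitor they were 453 and 419, but 796 and 709 with a floor at the 40th percentile, 268 and 236 with one at the 75th, and 207 and 123 from 3-fold on. At day 10 against day 7 they were 314 and 201, but 686 and 517, 193 and 77, and 114 and 51. At day 10 against progenitor they were 771 and 660, but 1264 and 1043, 478 and 366, and 392 and 266. With TNF against day 10 they were 203 and 222, but 544 and 539, 92 and 95, and 55 and 46.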

Other observations

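Among 17 other receptor tyrosine kinase genes measured, few were above the floor. Mertk, which takes part in the uptake of dying cells, was under the floor in progenitors and had 1275 units at day 7, 915 at day 10 and 896 with TNF. It was at least 2.98-fold higher at day 7. Flt1, a VEGF receptor gene, had 1424 units at day 10 and 1353 with TNF and was under the floor in progenitors and at day 7, at least 3.33-fold higher at day 10 than at day 7, while a second probe set was under the floor on all 4 arrays. Tyro3 had 430 units with TNF against 1108 at day 10, 2.58-fold lower. Igf1r, the receptor for insulin-like growth factor 1, ran the other way, with 1031 units at day 7 against 2330 in progenitors, 2.26-fold lower, and was under the floor at day 10. At day 7, of 2 above the floor 1 was higher and 1 lower than in progenitors, against 10.5% and 9.72% of all genes. At day 10, of 5 above the floor 3 were higher and 1 lower than in progenitors, against 17.3% and 14.8%. With TNF, of 6 above the floor 0 were higher and 1 lower than at day 10, against 4.71% and 5.15%.

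Transcription factors known to act at receptor genes were listed as well. Of 15 measured, 10 were above the floor for day 7 against progenitor and 8 for TNF against day 10. At day 7, 2 were higher and 1 lower than in progenitors, against 10.5% and 9.72% of all genes. With TNF 1 was higher and 1 lower than at day 10, against 4.71% and 5.15%. Irf8 had 3774 units at day 7 against 587 in progenitors, and 13312 with TNF against 5314 at day 10, 2.50-fold higher. Cebpb, which acts in granulocyte and macrophage genes, had 11258 units with TNF against 23034 at day 10, 2.05-fold lower, or a log2 ratio of -0.81 after quantile normalization. Runx1 was 2.48-fold higher at day 7 than in progenitors. Myb was under the floor at day 10 and with TNF. Among 8 stromal markers only fibronectin, Fn1, was bright, at 14592 units in progenitors. Of 20 genes of other organs measured, 4 to 6 were above the floor in a comparison or on an array. Among them Mbp had 1198 to 1989 units and Actc1 2904 to 9339, so a level above the floor is by itself no proof of expression.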
